A study of Mus musculus with 6 samples.

Results

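Chemokines and chemokine receptors were examined in the ventricles of mice with a heart-specific, constantly active Akt (caAkt). The genes were chosen by symbol. A gene was included if the array annotation gave it a single symbol that starts with Ccl, Ccr, Cxcl or Cxcr and a digit, or that is Cx3cl1, Cx3cr1, Ccrl2 or Ackr1 to Ackr4. This gave 53 genes, 32 ligands and 21 receptors, of 18193 genes measured, and 85 of 45037 probe sets. Each gene was read from its brightest probe set. A mean log2 value of 6 or more in at least 1 group was reached by 42 of the 53, and 11 stayed below 6. The array medians were 6.77 to 6.80, so a value of 6 lies below the middle of all probe sets and does not show detection. Of the 42, Ccl3 and Cxcr6 reached 6 only in caAkt hearts, and Ccl11 only in wild-type hearts.

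The series compared 3 arrays of wild-type ventricles with 3 arrays of caAkt ventricles, all from mice of 8 weeks, to describe expression in a heart failure model. The caAkt mice carry a transgene for an activated Akt that is expressed only in the heart. The labels name no promoter, strain or sex, and say neither that each array is a separate heart nor that hearts were pooled. The p-values therefore reflect how far these arrays lie apart within a group, and that spread may be technical. The tissue was whole ventricle. For higher and lower signals alike, a change in the number of cells of a type and one in RNA per cell cannot be told apart.

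Chemokines are small secreted proteins that bind receptors with 7 membrane-spanning segments on leukocytes and other cells and guide their movement. The CC and CXC families are named after the spacing of cysteines near the start of the protein. Most receptors signal through inhibitory G proteins, whereas the atypical receptors take up or present chemokines without that signal. In the heart, CCR2 and its ligands are known for recruiting monocytes from the blood, CXCR2 and its ligands for recruiting neutrophils, and CXCL12 for binding progenitor and endothelial cells through CXCR4.

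The transgene was visible in Akt1, whose probe set with the largest change stood at 9.79, 9.79 and 10.18 on the wild-type arrays and at 15.16, 15.10 and 15.08 on the caAkt arrays, while its other 3 probe sets differed by -0.29, -0.21 and 0.08. The 10 cardiomyocyte markers averaged 14.67 to 14.82 per array in wild-type and 14.57 to 14.63 in caAkt hearts, where single values of the series ran from 3.17 to 15.45. Macrophage markers moved with the genotype. Of 12, 11 were higher and 1, the scavenger receptor Cd163, was lower, and the mean over the list was 8.57 to 8.74 on wild-type arrays and 9.56 to 9.86 on caAkt arrays. The Cd163 call was lost when either wild-type replicate 1 or caAkt replicate 1 was left out. The part of this shift in the results below was not tested.

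Of the 53 genes, 18 were higher and 5 were lower in caAkt hearts (limma, adjusted p under 0.05 over all genes). The count of lower genes was 11 with array weights and 3 at a threshold of 0.01. Over all genes, 28.5% were called, 16.1% as higher and 12.4% as lower, whereas the 53 genes were called in 43.4% of cases, 34.0% as higher and 9.43% as lower. The difference was at least 2-fold and called for 7 genes, all of them higher, against 2.48% of all genes higher by that much. The median log2 difference of the 53 genes was 0.05, beside -0.04 for all genes. The groups did not overlap for 26 of the 53 genes, 17 with caAkt above and 9 with caAkt below (background 42.4% in all, 21.4% and 21.1%). Of the 23 called genes, 22 were among them, and the exception was Cxcr4. The calls of 18 of the 23 held when any single array was left out. Those of Ccl11, Cxcl2, Cxcl17, Ccr7 and Cxcr4 did not, as given with each gene.

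**Figure D1:**
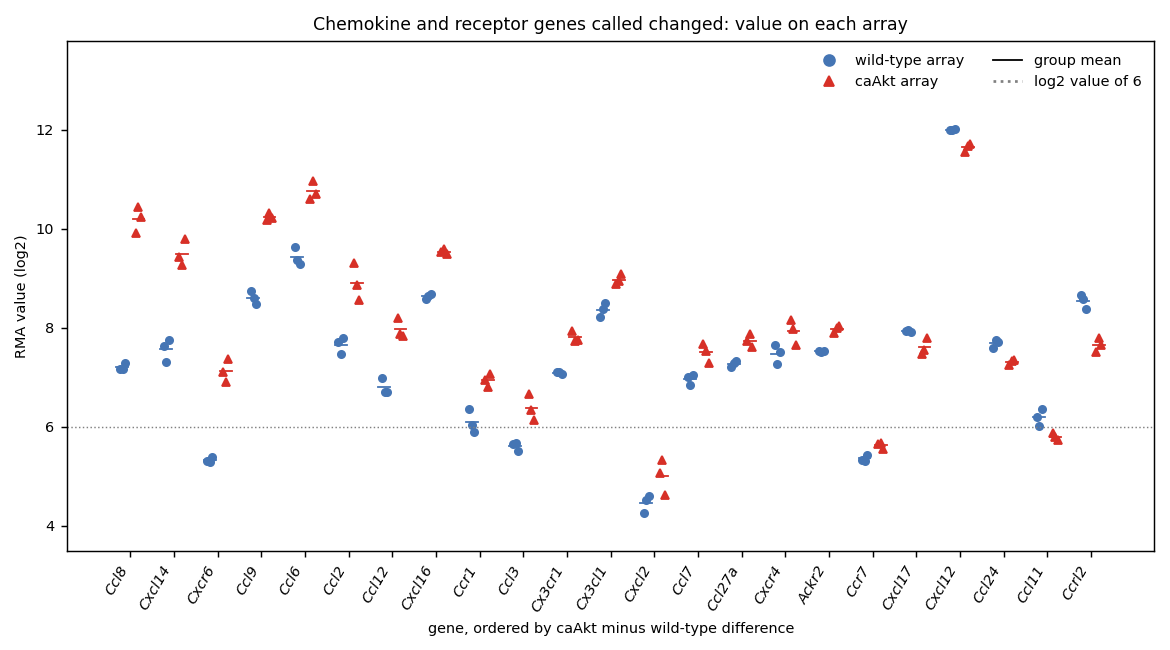
RMA values (log2) of the 23 called genes on each wild-type array (blue circles) and each caAkt array (red triangles), with group means as short lines and the value of 6 as a dotted line. Genes run from the largest rise, Ccl8 (2.99), to the largest fall, Ccrl2 (-0.89), and the groups overlap only for Cxcr4.

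All 4 monocyte chemoattractant proteins rose, beside 16.1% of all genes called as higher. These are Ccl2, Ccl7, Ccl8 and Ccl12, which attract monocytes, mostly through CCR2, and Ccl8 is described in the mouse as a ligand of CCR8. Ccl8 had the largest difference of the 53 genes. It stood at 7.16, 7.17 and 7.30 on the wild-type arrays and at 9.92, 10.43 and 10.25 on the caAkt arrays, and no caAkt value came within 2 log2 units of wild-type. Its log2 difference was 2.99 ± 0.12 (SE, limma adjusted p = 8.23e-07), or 7.95-fold.

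Ccl2, the best known of the monocyte attractants, stood at 7.72, 7.46 and 7.79 in wild-type and at 9.31, 8.86 and 8.56 in caAkt hearts. The caAkt values were all higher but spread by more than the wild-type ones, with replicate 1 the highest. Its log2 difference was 1.26 ± 0.17 (SE, limma adjusted p = 0.00059), or 2.39-fold. Ccl12, a mouse gene close to Ccl2, stood at 7.0, 6.70 and 6.71 and at 8.20, 7.88 and 7.83. Its difference of 1.17 ± 0.12 (SE, limma adjusted p = 0.000101) was near that of Ccl2, and caAkt replicate 1 was again the highest. Ccl7 had the smallest rise of the group. It stood at 7.0, 6.85 and 7.04 and at 7.68, 7.54 and 7.29, a difference of 0.54 ± 0.11 (SE, limma adjusted p = 0.00433).

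To show the DNA next to the starts of these genes, RefSeq promoter windows (GRCm38.p6) were read for the genes that had one, 40 of the 53. The 250 bases before the start are given 5′ to 3′ for 4 ligands that rose (Ccl8, Ccl12, Ccl9 and Cxcl14). They are also given for 2 CXC ligands that carry matches to the NF-κB motif (Cxcl2, which was called as higher too, and Cxcl10). Capitals mark matches, on either strand, to the motifs of AP-1 (TGANTCA), interferon-stimulated elements (by name), STAT dimers (TTCNNNGAA), PU.1 (GAGGAA), FoxO (GTAAACA) and NF-κB (by name).
Ccl8, chr11:82114935-82115184, + strand: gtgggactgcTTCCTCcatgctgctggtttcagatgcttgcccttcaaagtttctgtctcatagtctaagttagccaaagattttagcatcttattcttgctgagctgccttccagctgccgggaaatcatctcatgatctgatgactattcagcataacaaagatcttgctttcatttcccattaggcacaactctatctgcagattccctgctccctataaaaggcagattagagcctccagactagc
Ccl12, chr11:82101595-82101844, + strand: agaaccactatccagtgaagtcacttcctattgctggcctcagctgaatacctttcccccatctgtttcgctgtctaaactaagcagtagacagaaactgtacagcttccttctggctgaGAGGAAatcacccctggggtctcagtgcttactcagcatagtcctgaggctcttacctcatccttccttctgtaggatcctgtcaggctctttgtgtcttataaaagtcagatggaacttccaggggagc
Ccl9, chr11:83578637-83578886, - strand: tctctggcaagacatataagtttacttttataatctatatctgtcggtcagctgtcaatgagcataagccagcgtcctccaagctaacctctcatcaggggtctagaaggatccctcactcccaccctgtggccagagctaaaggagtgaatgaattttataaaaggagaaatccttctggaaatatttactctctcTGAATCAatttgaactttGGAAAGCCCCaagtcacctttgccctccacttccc
Cxcl14, chr13:56296552-56296801, - strand: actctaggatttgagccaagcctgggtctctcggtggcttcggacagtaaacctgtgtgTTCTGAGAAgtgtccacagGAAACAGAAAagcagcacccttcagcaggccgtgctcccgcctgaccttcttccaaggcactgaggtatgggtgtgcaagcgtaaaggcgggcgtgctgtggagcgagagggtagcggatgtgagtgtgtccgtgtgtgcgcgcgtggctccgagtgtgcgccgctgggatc
Cxcl2, chr5:90903649-90903898, + strand: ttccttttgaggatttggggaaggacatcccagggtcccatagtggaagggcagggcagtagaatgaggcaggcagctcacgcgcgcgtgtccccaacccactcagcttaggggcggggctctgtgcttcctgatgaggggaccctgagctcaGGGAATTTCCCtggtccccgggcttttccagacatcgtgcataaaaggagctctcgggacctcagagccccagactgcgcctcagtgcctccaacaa
Cxcl10, chr5:92348890-92349139, - strand: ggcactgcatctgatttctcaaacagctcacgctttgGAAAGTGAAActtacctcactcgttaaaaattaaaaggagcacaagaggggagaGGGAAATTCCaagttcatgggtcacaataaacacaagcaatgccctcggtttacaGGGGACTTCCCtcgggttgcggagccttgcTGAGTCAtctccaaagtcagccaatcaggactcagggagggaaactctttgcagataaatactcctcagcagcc
Ccl8 and Ccl12 each held 1 match to the PU.1 motif, 240 and 130 bases before the start. Ccl9 held 1 match to AP-1 and 1 to NF-κB, and Cxcl14 held 1 interferon-type and 1 STAT match. Cxcl2 held 2 NF-κB matches that overlap each other, and Cxcl10 held 3, of which 2 overlap, besides 1 AP-1 and 1 interferon-type match. An NF-κB match was found in 12 of the 40 genes, against 8.23% of the 27025 genes with a window. It was found in 4 of 14 genes that were higher, 1 of 2 that were lower and 7 of 24 that were not called, so matches were present in each class. A PU.1 match was found in 12 of 40 (25.9% of all genes), in 6 of the 14 that were higher, 0 of 2 that were lower and 6 of the 24 not called. For AP-1 the count was 5 of 40 (7.82% of all genes), for the STAT motif 4 (8.13%), for the interferon-type motif 2 (3.46%) and for FoxO 0 (3.54%). Every window printed above holds a match, whereas those of Ccl6, Cxcr6, Cx3cr1 and Cxcr4, also called as higher, held none. A match is a description of the letters and not a bound site.

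Of the group of Ccl3, Ccl4, Ccl5, Ccl6 and Ccl9, 3 of 5 rose, beside 16.1% of all genes called as higher. Ccl6 and Ccl9, CC chemokines of rodents that bind CCR1, both rose more than 2-fold. Ccl9 stood at 8.75, 8.60 and 8.47 in wild-type and at 10.18, 10.33 and 10.23 in caAkt hearts, a log2 difference of 1.64 ± 0.09 (SE, limma adjusted p = 3.04e-06), or 3.11-fold. The caAkt values lay within 0.2 of each other. Ccl6 stood at 9.64, 9.36 and 9.28 and at 10.60, 10.96 and 10.71, a difference of 1.33 ± 0.12 (SE, limma adjusted p = 4.70e-05). Both genes had a second, dimmer probe set that was also called, at 1.53 for Ccl9 and 1.26 for Ccl6.

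Ccl3, an attractant of monocytes and T cells, stood at 5.66, 5.67 and 5.51 and at 6.66, 6.33 and 6.13. The groups did not overlap, and the difference was 0.76 ± 0.13 (SE, limma adjusted p = 0.0017). Its neighbour Ccl4, an attractant of monocytes and T cells as well, had means of 7.13 and 7.18 and a difference of 0.05 ± 0.07 (adjusted p = 0.634). Ccl5, a product of T cells and platelets, stood at 6.80, 7.21 and 6.80 and at 7.32, 7.32 and 7.12. The value of 7.21 overlapped the caAkt group, and the difference of 0.32 ± 0.12 was not called (adjusted p = 0.0792). Leaving out wild-type replicate 2 gave 0.45 (adjusted p = 0.00968).

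**Figure D2:**
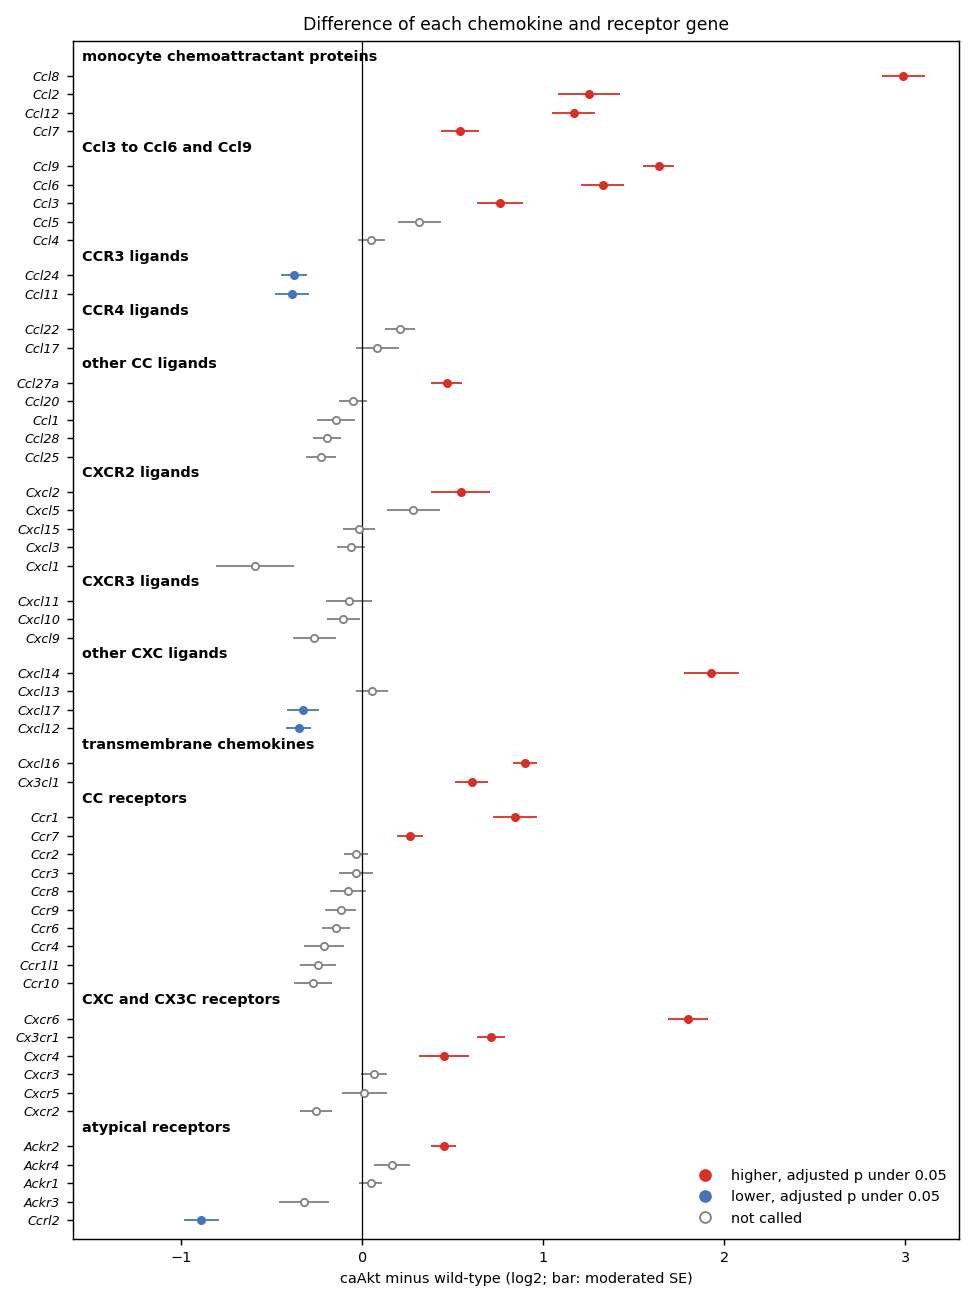
Log2 difference, caAkt minus wild-type, of each of the 53 genes with its moderated SE, grouped by role; red points are called higher, blue points called lower and open points not called. All 4 monocyte chemoattractant proteins and both transmembrane chemokines lie to the right of 0, both eotaxins (CCR3 ligands) to the left, and the CXCR3 ligands stay uncalled.

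Both eotaxins, which attract eosinophils through CCR3, fell, beside 12.4% of all genes called as lower. Ccl24 stood at 7.60, 7.76 and 7.71 in wild-type and at 7.26, 7.34 and 7.36 in caAkt hearts, a log2 difference of -0.37 ± 0.07 (SE, limma adjusted p = 0.00419). Ccl11 stood at 6.19, 6.02 and 6.36 and at 5.88, 5.80 and 5.73, a difference of -0.39 ± 0.09 (SE, limma adjusted p = 0.0134). Without caAkt replicate 3 Ccl11 was not called (-0.35, adjusted p = 0.0554). Both falls were small next to the rises of Ccl2, Ccl8 and Ccl12, and no value of one group reached into the other. Their receptor gene Ccr3 had means of 4.26 and 4.23 and was not called (adjusted p = 0.807).

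Of the remaining CC ligands, 1 of 7 was called, beside 28.5% of all genes. Ccl27a, a ligand of CCR10 known from skin, stood at 7.20, 7.29 and 7.33 in wild-type and at 7.73, 7.88 and 7.61 in caAkt hearts, a difference of 0.47 ± 0.09 (SE, limma adjusted p = 0.00304). The gene has near-identical copies, and its only single-symbol probe set is of a type that can bind related transcripts, so the copies cannot be told apart. Its receptor Ccr10 had a difference of -0.27 ± 0.11 and was not called (adjusted p = 0.0902), and leaving out wild-type replicate 1 gave -0.38 (adjusted p = 0.0159).

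The CCR4 ligands Ccl17 and Ccl22, attractants of regulatory and type 2 T cells, had differences of 0.08 ± 0.12 and 0.21 ± 0.08 and were not called (adjusted p = 0.637 and 0.0946). Ccl1 (-0.14 ± 0.11, a ligand of CCR8), Ccl20 (-0.05 ± 0.08, of CCR6), Ccl25 (-0.23 ± 0.08, of CCR9) and Ccl28 (-0.19 ± 0.08, of mucosal surfaces) were not called either. The wild-type and caAkt values of Ccl25 and Ccl28 did not overlap. Ccl25 was called without caAkt replicate 3 (-0.30, adjusted p = 0.0345).

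The CXCR2 ligands, which attract neutrophils, did not move together. Cxcl1 stood at 8.86, 8.57 and 9.57 in wild-type and at 8.51, 8.49 and 8.22 in caAkt hearts. The groups did not overlap, but the wild-type values spread over 1 log2 unit, and the difference of -0.59 ± 0.22 was not called (adjusted p = 0.0735). Leaving out wild-type replicate 2 gave -0.81 (adjusted p = 0.0202). Further probe sets of Cxcl1 differed by -0.99 and -0.18. The mean of its 3 probe sets gave -0.59 and was called as lower (limma adjusted p = 0.0489). So was the -0.99 (limma adjusted p = 0.0414) when probe sets of types that can bind several transcripts were set aside. Cxcl2, a dim gene, stood at 4.27, 4.53 and 4.60 and at 5.06, 5.34 and 4.63, a difference of 0.54 ± 0.16 (SE, limma adjusted p = 0.0353). The call rested on narrow margins, with 4.63 just above 4.60. It was lost when replicate 1 or 2 of either genotype was left out (adjusted p 0.0734 to 0.118). Cxcl3, Cxcl5 and Cxcl15 stayed below 6 and were not called, at -0.06, 0.28 and -0.01. The receptor Cxcr2 stood at 6.46, 6.64 and 6.50 and at 6.14, 6.31 and 6.39, and its difference of -0.26 ± 0.09 just missed the threshold (adjusted p = 0.0564). It was called without caAkt replicate 3 (-0.31, adjusted p = 0.0483). Of 8 neutrophil markers measured, 0 were called by limma in either direction, and 0 had an unadjusted p under 0.05. Their mean was 6.44 to 6.89 on wild-type arrays and 6.32 to 6.51 on caAkt arrays.

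The interferon-induced ligands of CXCR3, Cxcl9, Cxcl10 and Cxcl11, were not called. Cxcl10 stood at 6.41, 6.62 and 6.63 in wild-type and at 6.58, 6.43 and 6.33 in caAkt hearts, so the groups overlapped (-0.10 ± 0.09, adjusted p = 0.439). Cxcl9 had a difference of -0.26 ± 0.12 (adjusted p = 0.129), which passed the threshold once wild-type replicate 2 was left out (-0.37, adjusted p = 0.0467). Cxcl11 stayed below 6, with -0.07 ± 0.13. The receptor Cxcr3, a mark of activated T cells and natural killer cells, had means of 7.09 and 7.15 (0.06 ± 0.07, adjusted p = 0.533). Of 9 T cell markers and 6 natural killer cell markers measured, 0 were called by limma, and 1 and 0 had an unadjusted p under 0.05. The T cell list averaged 6.46 to 6.64 per wild-type array and 6.43 to 6.48 per caAkt array. The natural killer cell list averaged 6.02 to 6.18 and 5.94 to 6.03. These means lie below the array medians of 6.77 to 6.80, so an absent call says little about these cells. Leaving out wild-type replicate 1, 1 T cell marker was called as lower.

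Among the other CXC ligands, Cxcl14 had the second-largest rise of the 53 genes. Cxcl14 is made by epithelial cells and fibroblasts and its receptor is not settled. It stood at 7.63, 7.31 and 7.76 in wild-type and at 9.43, 9.27 and 9.80 in caAkt hearts, a log2 difference of 1.93 ± 0.15 (SE, limma adjusted p = 2.31e-05), or 3.81-fold. Its second probe set rose by 2.63 ± 0.10, so the size of the rise depended on the probe set. Fibroblast markers were higher in 7 of 9 cases (median difference 0.90), with list means of 11.30 to 11.57 per wild-type array and 12.53 to 12.71 per caAkt array. Their part in the rise of Cxcl14 was not tested.

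Cxcl12, the retention signal for cells that bear CXCR4, fell at its brightest probe set. It stood at 11.988, 12.003 and 12.013 in wild-type and at 11.55, 11.68 and 11.72 in caAkt hearts, a difference of -0.35 ± 0.07 (SE, limma adjusted p = 0.00538). Neither of its dimmer probe sets was called (0.02 and -0.05), and the mean of the 3 gave -0.13 (adjusted p = 0.193). The fall was therefore seen at 1 of 3 probe sets. Cxcl17, a mucosal chemokine, stood at 7.94, 7.95 and 7.92 and at 7.48, 7.54 and 7.80 (-0.33 ± 0.09, limma adjusted p = 0.0228). Leaving out replicate 1 or 2 of either genotype ended the call (adjusted p 0.0589 to 0.0835). Cxcl13, which guides B cells, had means of 7.40 and 7.45 and was not called (adjusted p = 0.674).

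Both chemokines that are made as membrane proteins rose, as did the receptor of each, beside 16.1% of all genes called as higher. Cxcl16, which also serves as a scavenger receptor on macrophages, stood at 8.59, 8.64 and 8.68 in wild-type and at 9.53, 9.59 and 9.497 in caAkt hearts. The arrays of a group lay within 0.1 of each other, and the difference was 0.90 ± 0.07 (SE, limma adjusted p = 1.76e-05). A second probe set rose by 1.51 ± 0.12. Its receptor Cxcr6, known from T cells and natural killer T cells, stood at 5.31, 5.29 and 5.39 and at 7.12, 6.90 and 7.37. This was the largest rise of any receptor, 1.80 ± 0.11 (SE, limma adjusted p = 6.64e-06) or 3.48-fold, and the dimmer probe set rose by 0.86 ± 0.10. It passed the value of 6 in caAkt hearts alone.

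Cx3cl1, or fractalkine, an adhesion molecule of endothelial cells, stood at 8.21, 8.39 and 8.502 in wild-type and at 8.89, 8.95 and 9.08 in caAkt hearts. Its difference was 0.61 ± 0.09 (SE, limma adjusted p = 0.00106). Of its 4 probe sets, the next brightest rose by 1.02 ± 0.09, whereas neither of the dim ones was called (-0.01 and -0.03). Its receptor Cx3cr1, a receptor of monocytes and resident macrophages, stood at 7.11, 7.10 and 7.08 and at 7.95, 7.73 and 7.75 (0.71 ± 0.08, limma adjusted p = 0.00015). A second Cx3cr1 probe set was not called, with 1 caAkt array at 6.35 and the other five between 5.09 and 5.14.

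Among the CC receptors, 2 of 10 rose and 0 fell, a share near the 16.1% of all genes called as higher. Ccr1, the receptor of Ccl3, Ccl6 and Ccl9, stood at 6.35, 6.03 and 5.91 in wild-type and at 6.95, 6.80 and 7.08 in caAkt hearts. The groups did not overlap, and the difference was 0.84 ± 0.12 (SE, limma adjusted p = 0.000761). The second probe set rose by 0.45 ± 0.07. Ccr7, which brings dendritic and T cells to lymphoid tissue, was a dim gene with means of 5.36 and 5.63 (0.26 ± 0.07, limma adjusted p = 0.0231). As for Cxcl17, leaving out replicate 1 or 2 of either genotype ended the call (adjusted p 0.0647 to 0.0894).

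Ccr2, the receptor of the monocyte attractants, depended on the probe set. The brightest of its 4 probe sets gave 8.21 on all wild-type arrays and 8.22, 8.21 and 8.10 on the caAkt arrays (-0.03 ± 0.07, adjusted p = 0.734). The next brightest stood at 6.22, 6.17 and 6.03 and at 6.89, 6.44 and 6.54, and rose by 0.48 ± 0.12 (adjusted p = 0.0208 among all probe sets). Another stood at 5.23, 5.15 and 5.19 and at 6.50, 6.02 and 6.23, and rose by 1.06 ± 0.12 (adjusted p = 0.000286). The fourth gave 0.37 ± 0.14 (adjusted p = 0.102), and the mean of the 4 was 0.47 (adjusted p = 0.000963). Over all probe sets 20.0% were called. The brightest probe set varied less between arrays than any of the other 3, and the rule that selects it leaves Ccr2 uncalled. The remaining receptors Ccr3, Ccr4, Ccr6, Ccr8, Ccr9, Ccr10 and Ccr1l1 were not called and lay between -0.27 and -0.04.

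Among the CXC receptors, Cxcr4, the receptor of Cxcl12, stood at 7.65, 7.27 and 7.51 in wild-type and at 8.16, 7.98 and 7.65 in caAkt hearts. The lowest caAkt value overlapped the highest wild-type one, and the difference was 0.45 ± 0.14 (SE, limma adjusted p = 0.0382). Leaving out any of 4 arrays ended the call, namely wild-type replicates 2 and 3 and caAkt replicates 1 and 2 (adjusted p 0.0773 to 0.137). Receptor and ligand thus had opposite signs, though both calls depended on single arrays or probe sets. Cxcr5, which guides B cells toward Cxcl13, was dim and not called (0.01 ± 0.13).

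The atypical receptors went both ways. Ccrl2, which binds the attractant chemerin and passes on no signal of its own, had the largest fall of the 53 genes. It stood at 8.67, 8.58 and 8.39 in wild-type and at 7.52, 7.79 and 7.66 in caAkt hearts, a log2 difference of -0.89 ± 0.10 (SE, limma adjusted p = 0.000172), with wild-type 1.85-fold higher. Ackr2, a scavenger of inflammatory CC chemokines, stood at 7.53, 7.52 and 7.53 and at 7.89, 7.99 and 8.04 (0.45 ± 0.07, limma adjusted p = 0.00105). Neither of its other probe sets was called (0.11 and 0.16).

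Ackr3, which takes up Cxcl12, was not called. It stood at 11.998, 12.04 and 11.54 in wild-type and at 11.34, 11.59 and 11.69 in caAkt hearts, and the overlap came from wild-type replicate 3. The difference was -0.32 ± 0.14 (adjusted p = 0.123), and without that array it was -0.48 (adjusted p = 0.0139). Ackr4, a scavenger of Ccl19, Ccl21 and Ccl25, had a difference of 0.17 ± 0.10 and was not called, while 1 of its 2 dimmer probe sets rose by 0.47 ± 0.12 (adjusted p = 0.0281). Ackr1, which carries chemokines across venules, had means of 7.54 and 7.58 and was not called.

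**Figure D3:**
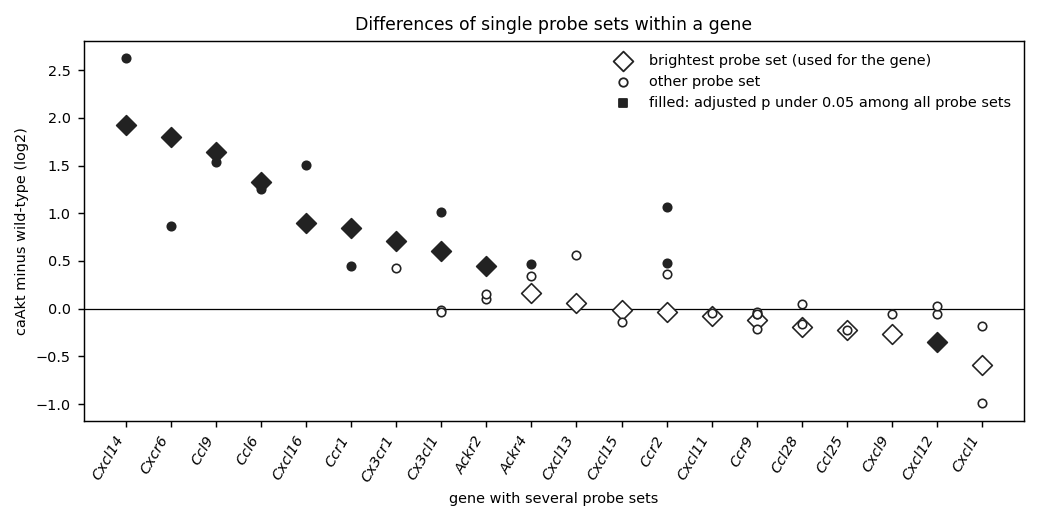
Log2 differences of single probe sets for the 20 genes that have several; diamonds are the brightest probe set, circles the others, and filled symbols were called among all probe sets. For 6 genes (Cxcl14, Cxcr6, Ccl9, Ccl6, Cxcl16 and Ccr1) all probe sets were called as higher, whereas the brightest probe set of Ccr2 lies near 0 and 2 of its others are called.

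Of the 20 genes with several probe sets, 6 had all probe sets called as higher, 6 had some called and 8 had none called. Over all probe sets of the arrays, 20.0% were called. The matching shares over all genes with several probe sets are not given here, so these counts cannot be set against them. The mixed ones were Ackr2, Ackr4, Ccr2, Cx3cl1, Cx3cr1 and Cxcl12. The other 33 genes rest on a single probe set, Ccl2, Ccl7, Ccl8, Ccl12 and Ccrl2 among them.

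Ligands and receptors that are known to bind can be set side by side. Cxcl16 and Cxcr6 (0.90 and 1.80), Cx3cl1 and Cx3cr1 (0.61 and 0.71), and Ccl3, Ccl6 and Ccl9 with Ccr1 (0.76, 1.33 and 1.64 with 0.84) were higher on both sides. Ccl4 and Ccl5, grouped above with Ccl3, Ccl6 and Ccl9, were not called (0.05 and 0.32). Cxcl12 and Cxcr4 (-0.35 and 0.45) were called in opposite directions. Ackr3, which takes up Cxcl12, was not called (-0.32). Ccl2, Ccl7 and Ccl12 (1.26, 0.54 and 1.17) rose while Ccr2 was not called at its brightest probe set (-0.03), and Ccl8 (2.99) rose while Ccr8 was not called (-0.08). Ccl1, the other CCR8 ligand named above, was not called either (-0.14). Of the CXCR2 ligands, read at the brightest probe sets, Cxcl2 (0.54) was called, and neither Cxcl1 (-0.59) nor Cxcr2 (-0.26) was. For Ccl11 and Ccl24 with Ccr3 (-0.39 and -0.37 with -0.04) and Ccl27a with Ccr10 (0.47 with -0.27), the ligand was called and the receptor was not. For Ccl25 and Ccr9, Ccl20 and Ccr6, Cxcl13 and Cxcr5, Cxcl9 to Cxcl11 with Cxcr3, and Ccl17 and Ccl22 with Ccr4, neither side was called. Differences between the sides of a pair were not tested.

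Several of these genes lie close together on the chromosomes (order from the RefSeq gene table of GRCm38.p6). Only the 53 genes were ordered, so other genes can lie between those named. On chromosome 11 the order of the first block is Ccl2, Ccl7, Ccl11, Ccl12, Ccl8 and Ccl1, with log2 differences of 1.26, 0.54, -0.39, 1.17, 2.99 and -0.14. A gene that fell thus lies between 2 pairs of genes that rose, and the gene at the end was not called. In the second block on that chromosome, Ccl9, Ccl6 and Ccl3 rose (1.64, 1.33 and 0.76) between Ccl5 and Ccl4, which were not called. On chromosome 9, Cxcr6 and Ccr1 rose (1.80 and 0.84) between Ccr9 on one side and Ccr1l1, Ccr3 and Ccr2 on the other, none of them called at the brightest probe set. On chromosome 5 the order among the 53 genes is Cxcl5, Cxcl3, Cxcl15, Cxcl1 and Cxcl2, and only the last was called.

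**Figure D4:**
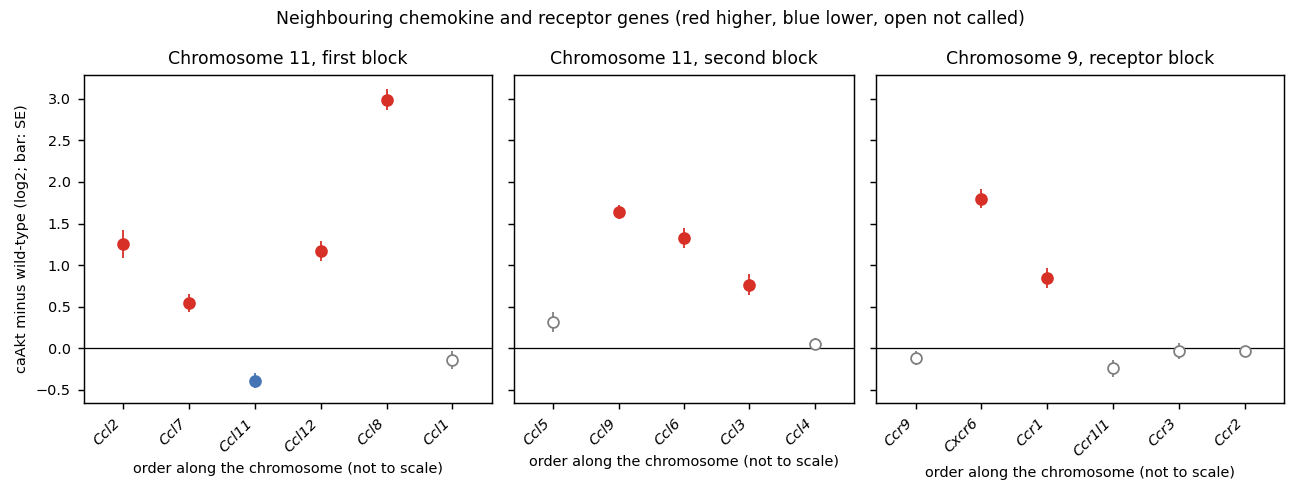
Log2 difference, caAkt minus wild-type, with its SE for chemokine and receptor genes in their order along chromosome 11 (2 blocks) and chromosome 9. Red is called higher, blue called lower and open not called. Distances are not to scale, and genes outside the set are left out. Ccl11 (-0.39) lies below 0 between Ccl7 (0.54) and Ccl12 (1.17), and Cxcr6 (1.80) stands beside Ccr9, which was not called.

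Without caAkt replicate 1, 2 or 3, the count of chemokine and receptor genes called higher was 15, 15 and 18. Their median difference, over called and uncalled genes, was 0.063, -0.010 and 0.026 in these fits. Among the 18 genes that were higher, the highest value lay on caAkt replicate 1 for 6 genes, on replicate 2 for 7 and on replicate 3 for 5. Some array must hold each highest value, so this tally does not test whether 1 array carried the rise. Replicate 1 was highest for Ccl2, Ccl7, Ccl12, Ccl3, Cx3cr1 and Cxcr4. Replicate 2 was highest for Ccl8, Ccl6 and Ccl9, and replicate 3 for Cxcl14, Cxcr6 and Ccr1. The wild-type arrays were close for Cxcl16 and Cxcr6 (SD 0.05 for each) and farther apart for Ccl2 (SD 0.17), Ccr1 (SD 0.23) and Cxcl14 (SD 0.23).

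Of the 11 genes that stayed below 6 in both groups, Cxcl2 and Ccr7 were called and 9 were not, with differences of -0.24 to 0.28. The genes just below 6 were Cxcl15 (5.88 and 5.86) and Ccr7 (5.36 and 5.63), and those just above were Ccl11 (6.19 and 5.80) and Ccl28 (6.20 and 6.0). The deposited values hold no detection call, so whether a dim gene, or one just above 6, was expressed cannot be read from them.

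Genes around the chemokine system were counted from lists that were chosen with earlier results of these data known. Of all genes, 16.1% were called as higher and 12.4% as lower, and enrichment of the lists was not tested. In receptor signalling, 14 of 29 rose and 0 fell (median difference 0.28; 17 higher and 1 lower at an unadjusted p under 0.05). Grk5, a kinase that switches off G protein-coupled receptors, rose by 1.58 ± 0.09, the leukocyte GTPase Rac2 by 0.70 ± 0.08 and the arrestin Arrb2 by 0.86 ± 0.10. Leaving out wild-type replicate 3, 1 gene of this list was called as lower. Of 12 leukocyte adhesion genes, 9 rose and 1, Icam2, fell (median 0.58). Itgam, among those that rose, is also on the macrophage list. Cd44 rose by 2.07 ± 0.08, the integrin chain Itgb2 by 1.5 ± 0.12 and Icam1 by 0.78 ± 0.08.

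Of 10 proteases that cut chemokines, 4 rose and 1, Mmp9, fell (median 0.23), with Mmp14 at 2.16 ± 0.08, the macrophage elastase Mmp12 at 3.37 ± 0.18 and Mmp2 at 1.22 ± 0.10. Of 19 inducers of chemokine transcription, 6 rose and 1 fell (median 0.05). The cytokine Il6 rose by 2.50 ± 0.12, the receptor Tlr2 by 1.30 ± 0.09 and the NF-κB subunit Relb by 0.63 ± 0.08, whereas Tnf (-0.08) and Ifng (-0.04) were not called. The 1 that fell, the interferon factor Irf1 (-0.21, limma adjusted p = 0.0448), kept its call when caAkt replicate 1 was left out and lost it when any other single array was. Of 8 chemokine-like genes with other symbols, 3 rose: the invariant chain Cd74, a receptor for Mif, by 1.31 ± 0.10, Mif by 0.86 ± 0.09 and the chemerin receptor Cmklr1 by 0.70 ± 0.10. The platelet chemokines Pf4 (0.06) and Ppbp (0.16) were not called.

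Marker lists of other cells are given beside these counts. Of all genes, 16.1% were called as higher and 12.4% as lower, and in lists this short a difference of 1 gene moves the share widely. For macrophages, Csf1r rose by 1.03 ± 0.13, Adgre1 by 1.32 ± 0.13 and Cd68 by 1.88 ± 0.10, and the median of the list was 1.06. No array value is 0. The lowest wild-type marker of the list was Itgam, at 5.60. Dendritic cell markers rose in 2 of 5 cases (Itgax and Cd209a) and fell in 0. Flt3 (-0.05), Zbtb46 (-0.13) and Siglech (-0.25) were not called. Lymphatic endothelial markers rose in 2 of 4 (Pdpn and Flt4), while Prox1 (-0.15) and Lyve1 (-0.46) were not called. Endothelial markers fell in 3 of 8 and rose in 0 (median -0.20, list means 10.05 to 10.10 in wild-type and 9.75 to 9.92 in caAkt). None of 5 B cell markers was called by limma (1 at an unadjusted p under 0.05), though 1 was called as higher without caAkt replicate 3. Mast cell markers fell in 2 of 6 cases, and in 0 or 1 when any array but caAkt replicate 1 was left out. Smooth muscle and pericyte markers rose in 2 of 7, in 4 without caAkt replicate 1 and in 1 without wild-type replicate 3 or caAkt replicate 2 or 3. Erythroid markers fell in 2 of 3, and in 1 when wild-type replicate 1 or 3, or replicate 2 or 3 of caAkt, was left out. Cardiomyocyte markers fell in 4 of 10. How much of the chemokine differences goes with these shifts was not tested.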

How the data were processed

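Ventricular RNA was measured on 3 wild-type and 3 caAkt arrays. The authors deposited 1 log2 value per probe set and array, made with RMA in the package affy per the submitters' processing notes; versions are not given in the sources used here. Because RMA equalises the arrays' distributions, a shift common to most genes is hidden. The array number limits the precision.

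Of 45101 probe sets, 64 were controls, 34945 had 1 symbol in the platform annotation, 932 several and 9160 none. Each of 18193 genes was read from its brightest single-symbol probe set. The genotypes were tested two-sided (lmFit and eBayes of limma 3.58.1, run in R 4.3.3) with Benjamini-Hochberg adjustment over all genes and a threshold of 0.05. The fit was tested on simulated data. Errors of differences are moderated SEs. Differences of other probe sets come from a fit of all probe sets. Genes at a mean of 6 or more, dimmer called genes, and up to 3 called genes with the smallest p per pathway list were named, with Akt1, Csf1r, Adgre1 and Cd68; the uncalled dimmer genes, Icam2, Mmp9, Irf1, Cd163, Itgam, Tnf, Ifng, Pf4 and Ppbp were added after their values were seen. The dendritic cell and lymphatic endothelial markers were also named after their values were seen. Members and lists were chosen with earlier results of these data known. Promoter sequences are from RefSeq (GRCm38.p6). Alternatives were other moderation, probe set choice, filter, scaling, array weights, a replicate block, a threshold of 0.01 and single arrays left out.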

Additional observations from a re-analysis of the deposited data

How the results depend on the processing

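Without single arrays, 15 to 18 of the 53 genes were higher and 4 to 6 lower, and the median difference ranged from -0.010 to 0.063 (-0.010 without caAkt replicate 2). With array weights 11 genes were lower, and at a threshold of 0.01, 3 were lower; the count of higher genes stayed within 1.5 times of 18 under each alternative run. Single genes were followed through the alternatives for the 23 called genes and the 21 uncalled ones at a value of 6 or more, and a call was lost 23 times (6 genes) and gained 23 times (11 genes). The sign turned for Ccr2 with the mean of its probe sets (0.47) and, among fits without an array, for Ccr2 (-0.0543 to 0.0023), Ccl17 (-0.031 to 0.17), Ccl20 (-0.10 to 0.013) and Cxcl13 (-0.010 to 0.14). Among the dimmer genes it turned without an array for Cxcl3 (-0.10 to 0.0031), Cxcl11 (-0.22 to 0.069), Cxcl15 (-0.094 to 0.036), Ccr3 (-0.14 to 0.015), Ccr8 (-0.16 to 0.013) and Cxcr5 (-0.10 to 0.16). None of these genes was called as reported, though the mean of the Ccr2 probe sets was (adjusted p = 0.000963). The replicate numbers gave no pairing, since same-numbered arrays deviated from their group means with correlations of 0.265, 0.031 and -0.121 across genes, and only replicate 1 correlated best with its own number. With the replicate block 19 genes were higher and 7 lower. The number of arrays limits the precision, and no detection call or background value accompanies the signals.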

Other observations

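The annotation gives several symbols to 4 probe sets that hold chemokine genes, and these were left out of the 53 genes. One of them covers the Ccl21 copies, ligands of CCR7 made by lymphatic vessels, and stood at 9.89, 9.80 and 9.46 in wild-type and at 10.54, 10.83 and 11.06 in caAkt hearts, a log2 difference of 1.09 ± 0.15 (limma adjusted p = 0.00101 among all probe sets). The groups did not overlap, and which copy gave the signal cannot be told. The probe set of Ccl19 and its copies gave 6.17 on each wild-type array and 6.11, 6.49 and 6.52 on the caAkt arrays (0.20 ± 0.11, adjusted p = 0.25). The 2 probe sets of Ccl27a and its copies gave 0.20 ± 0.08 (adjusted p = 0.113) and 0.25 ± 0.07 (adjusted p = 0.0432), smaller than the 0.47 of the single-symbol Ccl27a probe set.

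The brightest Ccr2 probe set held the same value, to within 0.001 on the log2 scale, on at least 3 arrays. This was so for 3 of the 85 chemokine and receptor probe sets (the others belong to Cxcl3 and Cx3cr1) and for 7.18% of all 45037 probe sets.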
